A study of Homo sapiens with 6 samples.

Results

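Transcripts of 43 genes of DNA replication and S phase were followed in A549, a line derived from a human lung adenocarcinoma. The members were chosen by name for their roles in replication licensing, fork synthesis, nucleotide synthesis and the control of S-phase entry, and all 43 were found among the 60624 genes of the count table. PolyA RNA had been sequenced from 3 libraries of parental cells (genotype WT) and 3 libraries of cells whose RAVER1 gene was deleted with CRISPR/Cas9 (genotype RAVER1 knockout). RAVER1 is an RNA-binding cofactor of the splicing regulator PTBP1, and the study's title places it between TGFB signalling, epithelial-mesenchymal transition and microRNA activity. No other treatment is named for either group. All knockout titles carry the tag KO2, and whether that tag stands for 1 clone is not given in the sources used here. The 3 libraries of each group are described as biological replicates in the design text, and p-values describe the spread between these libraries, not between separately derived knockout lines.

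A cell copies its genome once per cycle. In G1 the origin recognition complex, with CDC6 and CDT1, loads the MCM helicase ring at origins, a step called licensing. At S-phase entry cyclin E with CDK2, and other kinases, help convert the loaded ring into the active helicase by adding CDC45 and the GINS complex, and DNA polymerases then copy both strands. Many of these genes carry binding sites for E2F transcription factors, which the RB family holds in check until cyclin-CDK activity rises, so their transcripts are used as a readout of proliferation.

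The targeted gene matched the labels. RAVER1 (chr19:10316212-10333640 on hg38) stood at 73.2, 65.7 and 70.3 CPM (read counts scaled to a common library size and composition) in parental replicates 1, 2 and 3 and at 2.85, 2.81 and 2.54 CPM in the knockout libraries, or 3.94% of the parental level. Total counts ran from 29811747 to 39910127 per library, and the members had between 208 and 22189 counts in any library. Keratins marked the epithelial origin of the line, with KRT8 at 3761 ± 171 CPM (SD, n = 3) in parental libraries, whereas the surfactant gene SFTPA1 had no count and NKX2-1, a lung transcription factor, had 1 count in all 6 libraries together. The 13 epithelial and lung markers summed to between 8483 and 9339 CPM in parental and between 6419 and 7098 CPM in knockout libraries, with 6 of the 8 tested genes lower and 1 higher. The 9 fibroblast markers summed to 56.5 to 61.2 and 81.1 to 86.8 CPM respectively, with all 4 tested genes higher and DCN and FAP at 0 in all 6 libraries. Endothelial markers reached at most 0.129 CPM in sum, and the 8 leukocyte markers summed to 9.36 to 10.9 CPM in parental and 8.90 to 9.49 CPM in knockout libraries, with CD3E and MS4A1 at 0 and neither of the 2 tested genes past the threshold. These counts stand beside 21.3% higher and 20.1% lower among all tested genes. Of the tested markers on chromosome 2, where 66.8% of tested genes were higher, 1 fibroblast gene was higher and 1 epithelial gene lower. The part of these marker shifts in the results on the members was not tested.

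Replication transcripts changed by less than 1.5-fold in cells without RAVER1, and 5 of the 6 that rose lie on chromosome 2. Of the 43 members, all of which passed the filter on low counts, 6 rose and 14 fell at an edgeR adjusted p under 0.05, and 23 did not pass. The risers were RRM2, MCM6, ORC2, ORC4 and E2F6, all on chromosome 2, and GINS4 on chromosome 8. Those that fell were MCM4, MCM7, CDC6, CDT1, GINS1, GINS3, POLA1, PRIM1, POLE, PCNA, RFC4, LIG1, E2F2 and UHRF1, which kept between 79.3% and 92.3% of their parental level. Many of the falls were small and lost their call when 1 library or another was left out. The number of members lower was 9 without parental replicate 1, 8 without parental replicate 3 and 7 without knockout replicate 3. The 6 rises were called in each of these fits. Without the filter on low counts, CDC6, POLA1, RFC4, LIG1 and UHRF1 were not called and 9 members were lower. In bulk RNA, fewer cells in S phase and less of a transcript per cell cannot be told apart.

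The members' counts are read against the whole table, in which 41.4% of 16652 tested genes passed, 21.3% as higher and 20.1% as lower. Among members 46.5% passed, 14.0% as higher and 32.6% as lower. Of all tested genes with a mean CPM at least as high as the lowest member, 47.7% passed. The median log2 fold change was -0.077 over the members and 0.0019 over all genes tested. No member changed 1.5-fold or more, whereas 14.4% of tested genes did so and passed the threshold. The groups did not overlap for 7 members that were higher and 20 that were lower, or 16.3% and 46.5%, against 25.3% and 24.8% of all tested genes (50.2% in either direction). In 7 of these 27 members the change did not pass the threshold.

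**Figure D1:**
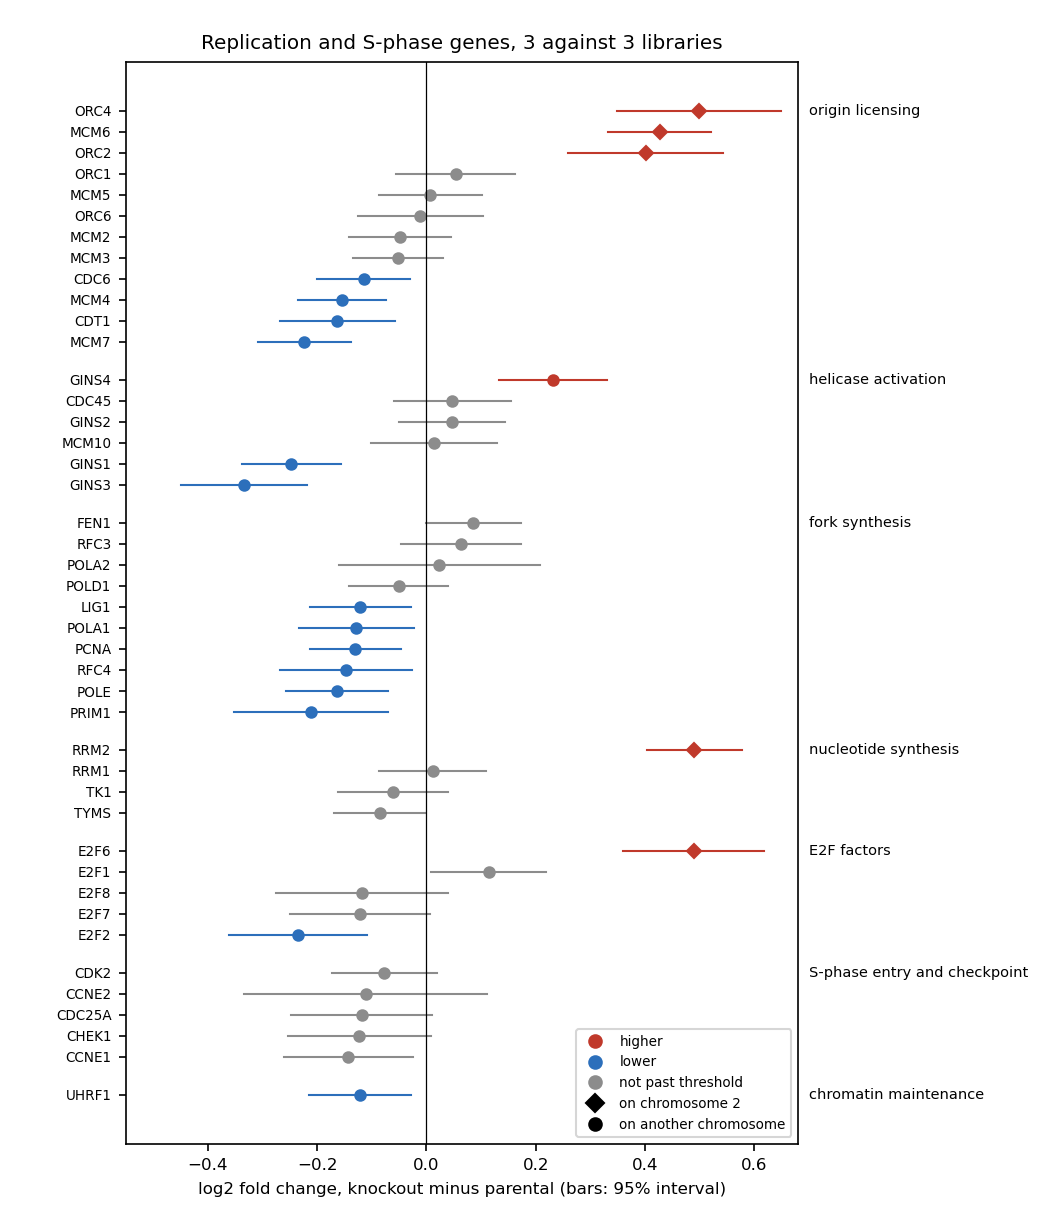
Log2 fold changes (knockout minus parental) of the 43 members with 95% intervals from the edgeR fit, which are not adjusted for the number of genes, grouped by role. Red points rose, blue points fell and grey points did not pass the threshold; diamonds mark chromosome 2, whose 5 members lie between 0.40 and 0.50, above the other 38, the highest of which is GINS4 at 0.23.

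**Figure D2:**
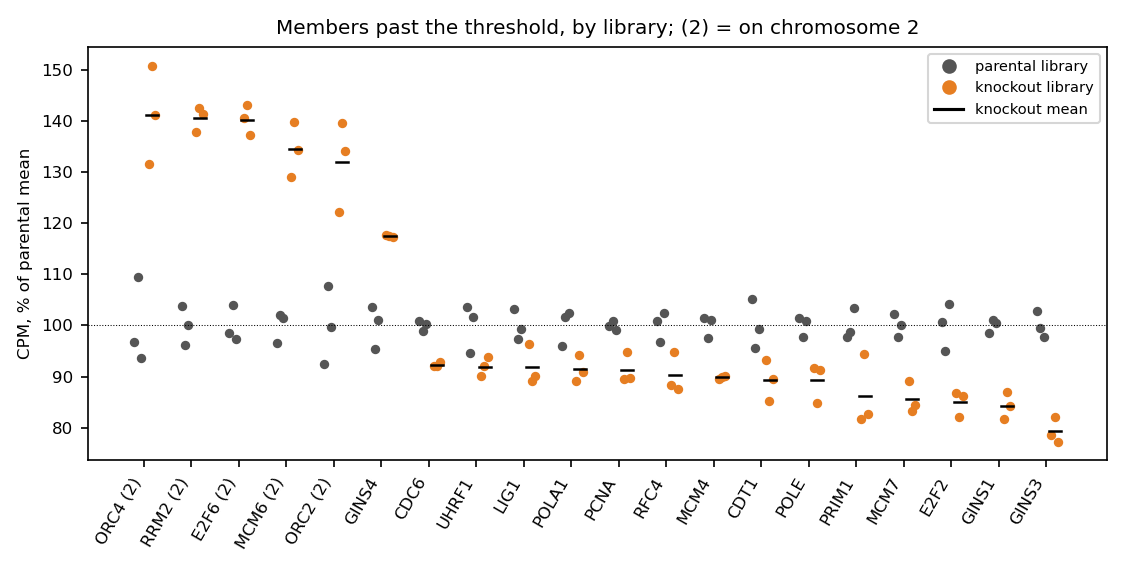
CPM of the 20 members past the threshold in each library, as a percentage of the parental mean, with a line at the knockout mean. In each gene the 3 knockout points lie on 1 side of the 3 parental points, and the members of chromosome 2, marked (2), and GINS4 are above 100%.

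All 5 members on chromosome 2 rose, whatever their role. RRM2 (chr2:10120698-10131419), the small subunit of ribonucleotide reductase that supplies deoxynucleotides in S phase, stood at 208, 192 and 200.4 CPM in parental and 276, 285 and 283 CPM in knockout libraries. Its log2 fold change was 0.49 (SE 0.041, edgeR adjusted p 1.6e-08). MCM6 (chr2:135839626-135876426), a subunit of the helicase ring, went from 119, 126 and 125 CPM to 159, 172 and 165 CPM, a change of 0.43 (SE 0.045). For both genes the lowest knockout library lay above the highest parental library.

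The other 3 members of the chromosome had lower counts. E2F6 (chr2:11444375-11466177), a repressor of the E2F family, stood at 19.5, 20.6 and 19.3 CPM in parental and 27.8, 28.3 and 27.2 CPM in knockout libraries, a change of 0.49 (SE 0.061). ORC4 (chr2:147930397-148021604) went from 20.04, 22.6 and 19.4 to 27.2, 31.2 and 29.2 CPM, and ORC2 (chr2:200908973-200963680) from 26.5, 30.8 and 28.6 to 34.99, 39.96 and 38.4 CPM. These subunits of the origin recognition complex changed by 0.50 (SE 0.072) and 0.40 (SE 0.068). The groups did not overlap for any of the 3 genes. For ORC2 the highest parental library was replicate 2 and the lowest knockout library replicate 1, and the gap between them was the narrowest of the 3 genes.

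Genes around these members were higher too. Chromosome 2 as a whole had a median log2 fold change of 0.42 over 1125 tested genes (quartiles 0.17 and 0.62), with 66.8% higher and 5.6% lower. Among the 24 tested genes nearest to each member, 12 on either side, the median was 0.53 around RRM2, 0.46 around E2F6, 0.39 around MCM6, 0.43 around ORC4 and 0.63 around ORC2. The member lay inside the quartile range of its neighbours in 4 of 5 cases, and ORC2 lay below it. Of the neighbours of ORC2, 22 of 24 were higher, and of those of ORC4, 11 of 24. What the chromosome-wide shift contributes to the rise of each member was not tested.

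Outside chromosome 2, neighbourhoods lay on both sides of 0. The neighbour medians of the 38 other members ran from -0.17 around CDK2 to 0.18 around E2F8, with a median of -0.0011. These extremes are single neighbourhoods and exceed in size the 38 members' own median of -0.11, whereas the median over neighbourhoods does not. Chromosome 11, which holds POLA2, FEN1, RRM1, E2F8 and CHEK1, had a median of 0.10, with 328 of 895 genes higher and 106 lower, and none of those 5 members passed. Around CCNE1, whose own value was -0.14, 9 neighbours were higher and 0 lower, with a median of 0.15. Of these 38 members 1 was higher and 14 were lower (2.63% and 36.8%), against 18.0% and 21.1% of the tested genes outside chromosome 2 (39.1% in either direction). Among genes outside chromosome 2 with a mean CPM at least as high as the lowest member, 21.5% were higher and 23.1% lower. The 38 members had a median of -0.11, and 27 of them had a negative value.

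**Figure D3:**
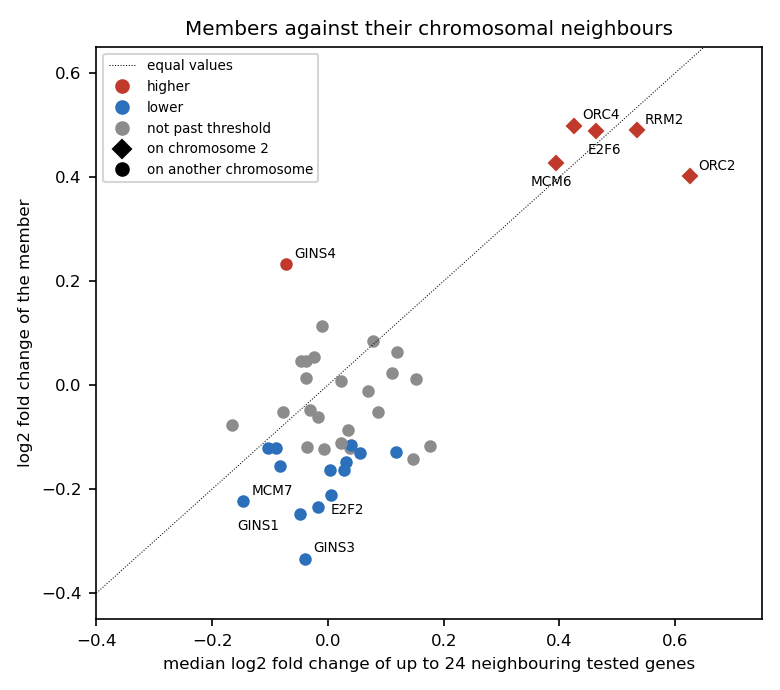
Log2 fold change of each member (vertical axis) against the median log2 fold change of its up to 24 nearest tested genes (horizontal axis), with a dotted line of equal values. The 5 members of chromosome 2 sit with their neighbours at the upper right, whereas the 38 others scatter between -0.33 and 0.23 around neighbourhoods between -0.17 and 0.18.

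Among the licensing genes, 3 of 12 rose and 4 fell, and 2 fell without parental replicate 1 or without knockout replicate 2. Of all tested genes, 21.3% were higher and 20.1% lower. The risers are the chromosome 2 members ORC2, ORC4 and MCM6. Of the 9 licensing genes outside chromosome 2, 0 rose and 4 fell. Among all tested genes outside that chromosome, 18.0% were higher and 21.1% lower. MCM7 (chr7:100092728-100101940), which had the highest RPKM of the 6 ring subunits (RPKM being CPM per kilobase of gene length), fell from 647, 619 and 634 CPM to 565, 528 and 535 CPM, by 0.22 on the log2 scale (SE 0.040, edgeR adjusted p 0.000179). Its chromosome, 7, had a median of -0.11 and its 24 neighbours a median of -0.15, and MCM7 lay inside their quartile range. MCM4 fell by 0.15 (SE 0.038). MCM2 stood at 291, 266 and 276 CPM in parental and 279, 258 and 268 CPM in knockout libraries, and the groups overlapped. Fold changes of MCM2 (-0.048), MCM3 (-0.052) and MCM5 (0.0073) did not pass, with 95% intervals of -0.14 to 0.046, -0.13 to 0.031 and -0.086 to 0.10.

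The loading factors CDC6 and CDT1 fell. CDC6, the ATPase that recruits the helicase to origins, stood at 136, 134 and 136 CPM in parental and 124, 124 and 126 CPM in knockout libraries, or 92.3% of the parental level, with a log2 fold change of -0.12 (SE 0.041). CDT1, which brings the helicase ring to CDC6, went from 98.2, 89.4 and 92.8 to 87.2, 79.7 and 83.6 CPM (-0.16, SE 0.050). Both calls were lost in some fits that left out 1 library. For CDC6 the change in those fits stayed close to that of all 6 libraries. The CDC6 call was lost without knockout replicate 2 (-0.11), knockout replicate 3 (-0.12), parental replicate 1 (-0.11) or parental replicate 3 (-0.12), and the CDT1 call without knockout replicate 2 (-0.13) or parental replicate 1 (-0.13). ORC1 (0.053, interval -0.055 to 0.16) and ORC6 (-0.012, interval -0.13 to 0.10) were not past the threshold.

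The promoter of MCM6 is shown because it holds more E2F matches than a single site and belongs to a member that rose. RRM2, ORC2, ORC4 and E2F6, which also rose, held no E2F match in the bases searched. For GINS4 there was no promoter entry. RefSeq promoter sequences on GRCh38.p14 were searched over the 250 bases before the annotated start, on both strands, for the E2F letters TTTCCCGC, TTTCGCGC, TTTGCCGC and TTTGGCGC and for CCAAT, the box bound by NF-Y. In MCM6 (chr2:135876444-135876693, minus strand) 4 E2F matches fall into 2 stretches, in each of which a match on one strand overlaps one on the other, beside 2 CCAAT boxes read on the opposite strand. The stretch is printed from 5′ to 3′ with matches in capitals.
MCM6: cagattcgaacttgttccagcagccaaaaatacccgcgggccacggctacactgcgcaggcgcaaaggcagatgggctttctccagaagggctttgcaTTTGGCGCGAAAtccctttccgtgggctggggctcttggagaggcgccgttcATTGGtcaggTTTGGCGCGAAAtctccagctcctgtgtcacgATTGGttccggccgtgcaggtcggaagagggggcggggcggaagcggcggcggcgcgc

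Of the 37 members with a promoter entry, 16 (43.2%) held an E2F match and 22 (59.5%) a CCAAT box, against 2.79% and 33.0% of 27305 promoters. The members were listed for functions that E2F is known to govern, so this share is a description of the list. Outside chromosome 2, the median log2 fold change was -0.12 for the 15 members with an E2F match, of which 8 fell, and -0.061 for the 17 without, of which 5 fell. Over the 11328 tested genes with a promoter entry, 503 held a match, and 21.7% of these were higher and 20.5% lower, against 23.5% and 21.8% of the genes without one. A match describes letters in this window and is not a measured site of binding.

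Sites from 3 members that fell and 2 that did not pass are set beside each other, each as 30 bases around the match nearest the start, with the E2F letters in capitals and read along the gene's strand. They are shown because the same letters occur in members on both sides of the threshold. The sides are not shown to differ, since POLA1 (-0.13, SE 0.050) and CDC25A (-0.12, SE 0.062) had similar values. In PCNA and POLA1 the match is on the opposite strand, so its complement is printed. The E2F2 stretch (chr1:23531257-23531286) has its match 42 bases before the start, the PCNA stretch (chr20:5126663-5126692) 59, the POLA1 stretch (chrX:24693770-24693799) 137, the CDC25A stretch (chr3:48188443-48188472) 44 and the MCM3 stretch (chr6:52284898-52284927) 174.
E2F2 (fell): gcggcacgacgTTTGGCGCtaaaaaaaaaa
PCNA (fell): cagcgtcagggGCGGGAAAaggcgtgcgtt
POLA1 (fell): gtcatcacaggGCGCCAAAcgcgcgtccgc
CDC25A (not past the threshold): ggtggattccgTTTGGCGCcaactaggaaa
MCM3 (not past the threshold): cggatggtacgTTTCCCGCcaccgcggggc

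Genes that turn the loaded ring into a working helicase moved in both directions. The GINS complex, a 4-subunit part of the helicase, was split. GINS3 (chr16:58295080-58406144) fell from 43.2, 41.8 and 41.0 to 33.0, 34.5 and 32.5 CPM, a change of -0.33 (SE 0.055) and the largest fall of any member. GINS1 (chr20:25407727-25452628) fell from 125, 128 and 128 to 104, 110.3 and 107 CPM (-0.25, SE 0.043). GINS4 (chr8:41529206-41545046) rose from 75.7, 69.7 and 73.8 to 86.0, 85.8 and 85.7 CPM (0.23, SE 0.047), and was the only member outside chromosome 2 to rise in the edgeR fit. Its 24 neighbours had a median of -0.072, and GINS4 lay within their quartile range. GINS2 was not past the threshold (0.047, interval -0.051 to 0.14).

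CDC45, the partner of GINS in the helicase, stood at 47.1, 46.3 and 45.3 CPM in parental and 48.4, 48.0 and 46.8 CPM in knockout libraries, and the groups overlapped. Its log2 fold change of 0.047 had an interval of -0.060 to 0.15. MCM10, which helps start the helicase, was at 0.014 (interval -0.10 to 0.13).

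Of the 10 fork members 6 were lower and 0 higher in edgeR, beside 21.1% lower and 18.0% higher among all tested genes outside chromosome 2. The count of lower members moved when 1 library was left out. It was 1 without knockout replicate 3, 2 without parental replicate 3, and 4 when replicate 1 of either group or parental replicate 2 was dropped. Without the filter on low counts 3 were lower, and with TMM factors computed without chromosome 2, 4. The same 6 were the only fork members with an unadjusted p under 0.05. DESeq2 called 4 lower and 0 higher, leaving out POLA1 and RFC4, and limma-voom called 6 lower and 0 higher. PRIM1, the catalytic primase subunit, fell from 26.6, 26.8 and 28.1 to 22.2, 25.6 and 22.4 CPM (-0.21, SE 0.067), with parental replicate 1 and knockout replicate 2 nearest each other. POLE, the catalytic subunit of the leading-strand polymerase, fell from 144, 139 and 143 to 130.1, 121 and 129.7 CPM (-0.16, SE 0.044). PCNA, the sliding clamp, went from 405, 409 and 402 to 363, 384 and 364 CPM (-0.13, SE 0.039). POLA1, the catalytic subunit of the priming polymerase, went from 60.3, 64.0 and 64.3 to 56.1, 59.3 and 57.2 CPM (-0.13, SE 0.050).

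The clamp loader subunit RFC4 (-0.15) and the ligase LIG1 (-0.12), which seals Okazaki fragments, also fell. Most of these small falls lost their call in 1 or more fits that left out 1 library. For RFC4 and LIG1 this included fits in which the fall was larger than with all 6 libraries. The PRIM1 call was lost without knockout replicate 3 (-0.18) or parental replicate 3 (-0.19), and the PCNA call without knockout replicate 3 (-0.12). The POLA1 call was lost without knockout replicate 1 (-0.11), knockout replicate 3 (-0.12), parental replicate 2 (-0.12) or parental replicate 3 (-0.12). RFC4 did not pass without knockout replicate 1 (-0.13), knockout replicate 3 (-0.13), parental replicate 1 (-0.14), parental replicate 2 (-0.17) or parental replicate 3 (-0.14). For LIG1 the call was lost without knockout replicate 2 (-0.10), knockout replicate 3 (-0.11), parental replicate 1 (-0.10) or parental replicate 3 (-0.13). The POLE call held in each of these runs. The flap nuclease FEN1 (0.086, interval -0.00096 to 0.17), RFC3 (0.063), POLA2 (0.024) and POLD1 (-0.051) were not past the threshold. The groups of FEN1 did not overlap, with the knockout libraries higher, and FEN1 passed without knockout replicate 1 (0.099). FEN1 also passed with a replicate block (edgeR adjusted p 0.0176).

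Nucleotide synthesis separated by subunit. RRM1, the large subunit of ribonucleotide reductase, was not past the threshold and stood at 179.9, 187 and 182 CPM in parental and 172, 194 and 188 CPM in knockout libraries, with overlapping groups and a log2 fold change of 0.011 (interval -0.086 to 0.11), while its partner RRM2 rose. On the RPKM scale, the ratio of RRM2 to RRM1 was 0.534, 0.476 and 0.508 in parental and 0.742, 0.681 and 0.695 in knockout libraries. The 2 groups of ratios did not overlap, and the two-sided exact permutation test gave p = 0.1, the smallest that 3 against 3 libraries allow. TYMS, which makes thymidylate, stood at 242, 235 and 232 and 224, 225 and 219.8 CPM. Its groups did not overlap, but its change of -0.086 was not past the threshold (edgeR adjusted p 0.0913). TYMS passed with upper-quartile scaling (edgeR adjusted p 0.0262) and with a replicate block (edgeR adjusted p 0.007375). The salvage kinase TK1 stood at -0.061 (interval -0.16 to 0.040) and passed without knockout replicate 1 (-0.12). TK1 also passed with a replicate block (edgeR adjusted p 0.0452).

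Of the E2F factors, E2F6 rose and E2F2 fell. E2F2 (chr1:23506430-23531220), an activator, went from 32.3, 30.4 and 33.4 to 27.8, 26.3 and 27.6 CPM (-0.24, SE 0.060, edgeR adjusted p 0.00378). E2F1, the activator best known for driving S-phase genes, stood at 71.2, 66.8 and 68.3 CPM in parental and 76.2, 70.7 and 76.5 CPM in knockout libraries. Those groups overlapped, and the change of 0.11 (SE 0.050) did not pass (edgeR adjusted p 0.0777). E2F1 passed without knockout replicate 2 (0.15). It also passed with TMM factors computed without chromosome 2 (edgeR adjusted p 0.04955) and with a replicate block (edgeR adjusted p 0.00827). The atypical repressors E2F7 (-0.12) and E2F8 (-0.12) were not past the threshold either, though E2F7 passed with upper-quartile scaling (edgeR adjusted p 0.0475).

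None of the 5 genes of S-phase entry and its checkpoint passed the threshold in edgeR, and 1, CCNE1, had an unadjusted p under 0.05. All 5 values were negative. Of 15527 tested genes outside chromosome 2, where these 5 lie, 39.1% passed and 7417 had a positive value. DESeq2 also called none, and limma-voom called CCNE1. In edgeR, CCNE1 passed with RLE scaling (adjusted p 0.0459), with upper-quartile scaling (adjusted p 0.0186) and with the filter of at least 1 CPM in 3 libraries (adjusted p 0.0434). CHEK1 passed with upper-quartile scaling (adjusted p 0.0495), and CCNE1, CHEK1 and CDC25A passed with a replicate block. CCNE1, which encodes cyclin E1, stood at 33.4, 32.4 and 33.0 CPM in parental and 30.9, 29.5 and 29.1 CPM in knockout libraries, so its groups did not overlap (-0.14, edgeR adjusted p 0.0505). Its call appeared without knockout replicate 1 (-0.17). CCNE2, the second E cyclin, had the lowest counts of the members, at 6.07, 7.31 and 6.89 CPM in parental and 5.64, 6.38 and 6.76 CPM in knockout libraries. Its groups overlapped, and its interval of -0.33 to 0.11 was the widest of these 5 genes.

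CDK2, the kinase that cyclin E activates, stood at 81.6, 77.8 and 78.3 CPM in parental and 76.5, 74.0 and 74.9 CPM in knockout libraries, with no overlap, but its change did not pass (-0.077, interval -0.17 to 0.019). CHEK1, the checkpoint kinase that restrains origin firing, stood at 38.6, 42.9 and 42.1 and 34.96, 39.7 and 38.8 CPM with overlapping groups (-0.12, interval -0.25 to 0.0085). The phosphatase CDC25A, which removes the inhibitory mark on CDK2, was at -0.12 and passed without knockout replicate 1 (-0.16). UHRF1, which couples DNA methylation to replication, fell from 165, 151 and 162 to 143, 146 and 149 CPM (-0.12, SE 0.044). The UHRF1 call was lost without knockout replicate 1 (-0.11), knockout replicate 2 (-0.12), knockout replicate 3 (-0.13), parental replicate 1 (-0.094) or parental replicate 3 (-0.12).

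Within a complex, the groups' shares of the summed RPKM overlapped for MCM2, ORC1 and ORC3 and did not overlap for any other subunit. Non-overlap included MCM5, whose own change did not pass. Its share was 9.42 ± 0.228% in parental and 10.0 ± 0.212% in knockout libraries (SD, n = 3 each). On the RPKM scale, MCM6 stood at 29.8 ± 0.909 RPKM in parental and 40.02 ± 1.61 RPKM in knockout libraries, and MCM7 at 144 ± 3.18 and 124 ± 4.43 RPKM (SD, n = 3 each). The order of subunits on this scale rests on the deposited gene lengths, which need not be those of the transcripts in use, while a subunit's own change does not. The share of MCM6 in the summed RPKM of the ring was 7.16, 7.93 and 7.68% in parental and 10.1, 11.4 and 10.8% in knockout libraries. The share of MCM7 was 36.8, 36.9 and 36.8% and 33.9, 32.9 and 33.0%. Neither pair of groups overlapped. The share of MCM2 was 15.0 ± 0.359% and 15.3 ± 0.326% (SD, n = 3 each), with overlapping groups (two-sided exact permutation p = 0.2).

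In the origin recognition complex ORC4 had the smallest share at these lengths, with 4.67 ± 0.307% of the summed RPKM in parental and 6.16 ± 0.266% in knockout libraries (SD, n = 3 each). ORC2 held 9.88 ± 0.646% and 12.2 ± 0.530%. The groups overlapped for ORC1 (35.3 ± 0.902% and 34.2 ± 2.40%, exact permutation p = 0.5) and ORC3 (13.1 ± 0.501% and 14.0 ± 0.784%, exact permutation p = 0.3). Within GINS, the share of GINS3 was 10.6 ± 0.267% in parental and 8.74 ± 0.178% in knockout libraries, and that of GINS4 17.2 ± 0.616% and 21.1 ± 0.276%. The comparisons of ORC4, ORC2, GINS3 and GINS4 had non-overlapping groups and an exact permutation p of 0.1, the smallest possible, so none could pass 0.05. Shares within a complex depend on each other.

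**Figure D4:**
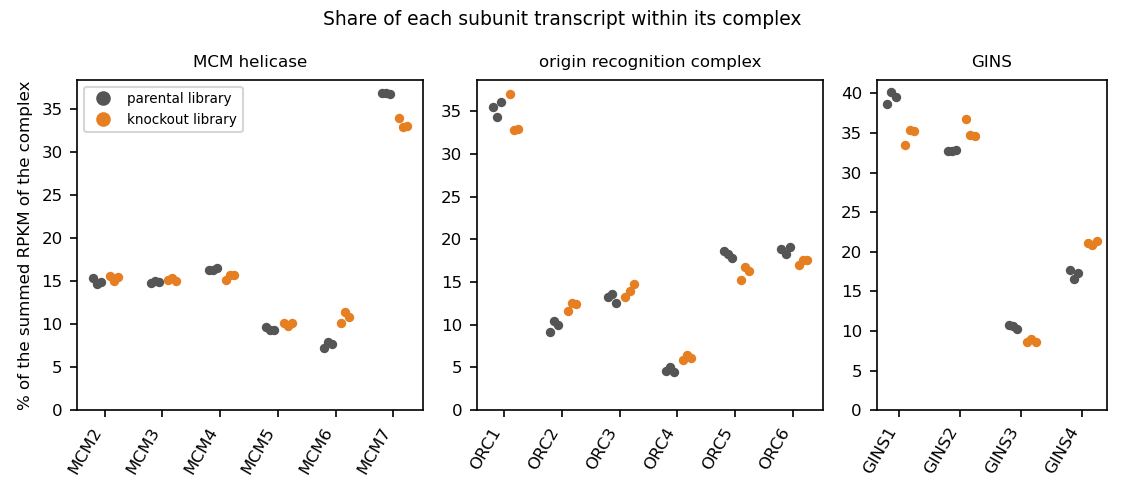
Share of each subunit in the summed RPKM of its complex (vertical axis, percent) in each parental (grey) and knockout (orange) library, for the MCM ring, the origin recognition complex and GINS. Among others, MCM6, ORC2, ORC4 and GINS4 take larger shares in all 3 knockout libraries, and MCM7, GINS1 and GINS3 smaller ones, while MCM2, ORC1 and ORC3 overlap between the groups.

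Other genes of the pathway were listed by role and not by how they moved, and their counts stand beside 21.3% higher and 20.1% lower among all tested genes. Of 32 other fork and polymerase genes 13 fell (40.6%) and 5 rose (15.6%), with a median of -0.12. ASF1B, a histone chaperone at the fork, fell by 0.41 (SE 0.049), and RPA3, a subunit of the single-strand binding protein, by 0.27. TOP2A, the topoisomerase that also serves mitosis, rose by 0.33. Of 16 other licensing and firing genes 2 rose and 2 fell (12.5% each). DBF4B, an activator of the CDC7 kinase, rose by 0.27 and ORC3 by 0.19, while the MCM-related MCM9 fell by 0.34.

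Of 26 tested nucleotide synthesis genes, 6 rose (23.1%) and 4 fell (15.4%), and all 4 on chromosome 2 rose, namely CAD (0.47), ATIC (0.52), MTHFD2 (0.40) and DTYMK (0.36). CAD, MTHFD2 and DTYMK were named after their values were seen. CTPS1, the CTP synthase on chromosome 1, rose from 130.3 ± 2.92 to 214 ± 5.94 CPM (SD, n = 3 each), by 0.71 on the log2 scale, which exceeds the change of any member. The folate enzyme SHMT1 fell by 0.24.

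Among 27 tested genes of S-phase entry and checkpoints 7 rose (25.9%) and 6 fell (22.2%), shares close to those of all tested genes. CDKN2C, which encodes the CDK4 and CDK6 inhibitor p18, fell from 54.7 ± 1.79 to 31.6 ± 0.709 CPM (-0.79), and the inhibitor gene CDKN1C fell by 2.09 from a low level of 1.14 ± 0.111 CPM (SD, n = 3). The CDK inhibitors did not share a direction, since CDKN1A rose from 134 ± 5.33 to 156 ± 10.7 CPM (0.23) while CDKN1B fell (-0.23), and CDKN2D was not past the threshold (-0.18). These 3 were named after their values were seen. CUL4B, a ubiquitin ligase scaffold, rose by 0.68. Of 15 other E2F and pocket protein genes, 2 rose, among them MYBL1 (0.56), and 3 fell, among them RBL2 (-0.22) and RBBP4 (-0.19).

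Of 34 mitosis genes, which act later in the cycle, 10 were higher (29.4%) and 3 lower (8.82%), with a median of 0.034, beside 21.3% and 20.1% of all tested genes. CDK1, the mitotic kinase, rose by 0.53 and the ubiquitin-conjugating enzyme UBE2C by 0.46, whereas the proliferation marker MKI67 fell by 0.20. Both mitosis genes on chromosome 2 rose, and without them 8 were higher and 3 lower. The difference between the 2 lists was not tested. Of 12 tested quiescence genes, TOB1, an antiproliferative gene, rose by 0.51, and 3 fell, among them DYRK1B (-0.37) and BTG1 (-0.25).

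**Figure D5:**
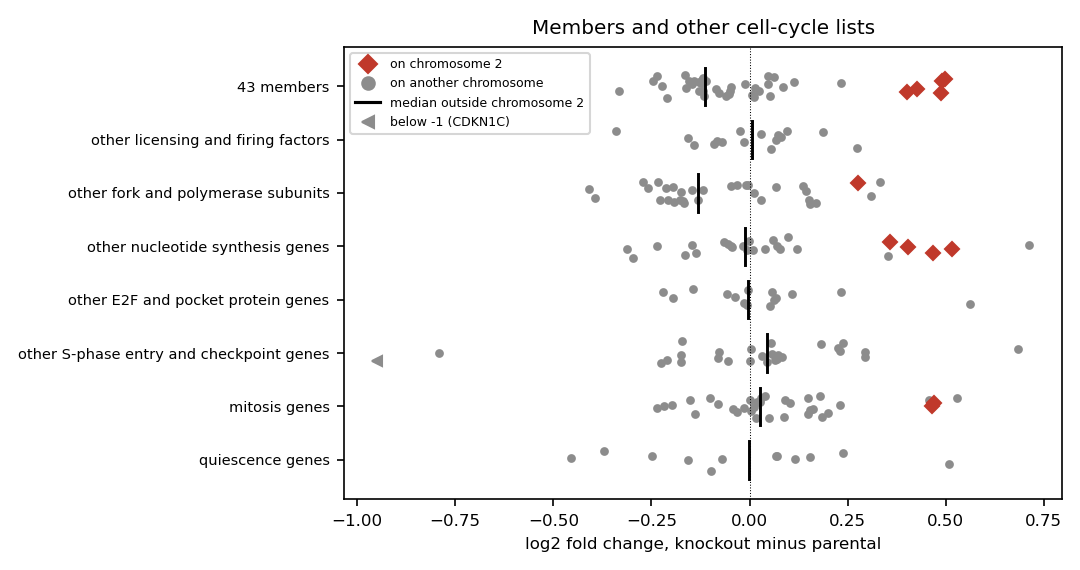
Log2 fold changes of tested genes in the members and in 7 other lists, 1 point per gene, with a line at the median of genes outside chromosome 2 and a triangle for CDKN1C, which lies below the axis range. Genes on chromosome 2 (red diamonds) lie above 0 in every list that holds one, and the members and the other fork genes have the lowest medians, at -0.11 and -0.13.

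Some members share exon sequence with other genes in GENCODE 29. The library kit keeps strand, per the labels' protocols, but whether the counting used it is not given in the sources used here. On the same strand, CHEK1 overlaps STT3A, FEN1 overlaps FADS2, PRIM1 overlaps NACA and RRM2 overlaps AC007240.1. On the opposite strand, CCNE2 overlaps INTS8, GINS2 overlaps GSE1, RFC4 overlaps EIF4A2 and FEN1 overlaps TMEM258. On that strand too, TYMS overlaps ENOSF1, MCM2 overlaps TPRA1 and ORC4 overlaps MBD5 and ACVR2A. Reads of these members could be split or shared with the partner gene, so their values are less certain. Opposite-strand partners not listed had at most 3.96% of the member's counts, the value of AP4M1 at MCM7.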

How the data were processed

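The authors deposited raw read counts per gene and library, with a gene length. Per the submitters' processing notes, cutadapt 2.8, HISAT2 2.1.0, SAMtools 1.10 and featureCounts 2.0.0 were used with the build hg38. The annotation release is not given in the sources used here, nor is the strand setting of the counting.

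Counts were fitted in edgeR 4.0.16 (R 4.3.3) with filterByExpr, TMM scaling and the quasi-likelihood F-test of knockout against parental libraries without covariates. P-values were adjusted by Benjamini-Hochberg over all 16652 genes kept. CPM used TMM-scaled library sizes, and RPKM divided them by the deposited length in kilobases. Libraries of 1 group differed beyond sampling noise (chi-square per degree of freedom 2.42 to 8.86), so none was a copy of another. All 6 were kept. Knockout replicate 1 gave 8.86 against replicate 2 and 5.705 against replicate 3, while knockout replicates 2 and 3 gave 2.42. Positions came from GENCODE 29 for 58437 of 60624 genes.

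Members and lists were chosen with earlier results of these data known. Values in every library are given for the 6 largest rises and falls past the threshold, the members on chromosome 2 and 16 members fixed by name. From other lists, up to 3 genes past the threshold with the smallest adjusted p are named, up to 2 of them in the rarer direction. The fit was tested on simulated data, with changed genes drawn at random from all genes kept. It recovered 21 of 49 changes of 1.25-fold and 35 of 47 of 1.5-fold, and called 8 of 16227 unchanged genes. Alternatives were other scalings (RLE, upper quartile, TMM without chromosome 2), no filter, at least 1 CPM in 3 libraries, DESeq2 1.42.0, limma-voom (limma 3.58.1), a replicate block, each library left out, and an adjusted p under 0.01.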

Additional observations from a re-analysis of the deposited data

How the results depend on the processing

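The 6 rises were called in all 14 alternative fits, which were planned. Of the 14 falls, MCM4, MCM7, GINS1, GINS3, POLE and E2F2 kept their calls in all 14 fits, and no called change reversed direction. The number of members lower was 9 without the low-count filter, 6 at an adjusted p under 0.01, and 7 to 14 when 1 library was left out; the lowest value came without knockout replicate 3, with 8 without parental replicate 3 and 9 without parental replicate 1. The number higher was 1 when chromosome 2 was left out (a setting chosen after seeing the data), and 6 to 7 when 1 library was left out. The median log2 fold change of the members was -0.081 with RLE scaling or DESeq2, -0.11 with upper-quartile scaling or without chromosome 2, -0.066 with TMM factors computed without chromosome 2, and -0.094 to -0.055 when 1 library was left out. With upper-quartile scaling, which shifted the median of all genes by -0.033, 6 members were higher and 18 lower. Why the calls and medians moved with the filter, the scaling and the libraries left out was not tested.

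The replicate numbers in the titles were not shown to pair the libraries. Deviations of libraries with the same number had correlations of 0.014 to 0.13, and 3 of 6 libraries correlated best with their own number. With the replicate block, 8 members were higher and 19 lower. Among the 23 members not past the threshold, the 95% bound farthest from 0 differed in size on the log2 scale. It ran from 0.10 (MCM5) to 0.33 (CCNE2, the member with the lowest counts). Changes within a member's own interval remain compatible with these 3 libraries a group. The intervals are not adjusted for the number of genes, and those of TYMS, E2F1 and CCNE1 exclude 0.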
